A study of Bos taurus with 34 samples.

Results

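The upper and the mid part of the contralateral uterine horn, the horn on the side opposite to ovulation, were compared within heifers, as upper minus mid. The comparison rests on 10 of the 34 libraries of the series, 5 of the upper and 5 of the mid horn, taken by the region in their labels and paired by the heifer number. RNA sequencing was done on the inner lining of the tract of 5 adult nulliparous Holstein heifers, numbered 10872, 10882, 11033, 11070 and 11110. Ovulation had been synchronised with a progesterone insert and tissue was taken at slaughter on day 2 after ovulation, so no untreated cycle, other day or pregnant group stands beside it. The ampulla of the oviduct, the upper horn and the mid horn of each side and the uterine body make up the 7 groups. All of them hold 5 heifers except the ipsilateral upper horn, which has 4. Each library is the whole lining of 1 site of 1 heifer, so that fewer cells of a type and less RNA per cell cannot be told apart.

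The uterine horns of cattle run from the oviduct junction to the body of the uterus, and on day 2 an embryo is still in the oviduct. The lining, the endometrium, holds a surface epithelium, tubular glands, a stroma, blood vessels and immune cells. Genes of the HOX clusters give cells of the reproductive duct their position from front to back during development and stay on in the adult. Members with high numbers, such as HOXA13, are used toward the lower end of the duct. Maternal signals that may act on an embryo are called embryokines, and the series title asks about their expression along the tract.

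Levels are CPM, counts of 1 transcript feature scaled to the library's total over the tested features times its TMM factor. They compare libraries but not genes, since they do not correct for length. Values per heifer are given in the order 10872, 10882, 11033, 11070, 11110. Means are ± SD with n = 5, log2 fold changes are edgeR estimates of upper minus mid ± SE, from the fit with all 34 libraries unless another is named.

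The labelled tissue was checked first. Markers of endometrial glands had summed CPM of 14020, 6584, 8164, 5199 and 3264 in the upper and 11942, 3967, 9931, 6513 and 4682 in the mid horn, against 556 to 806 in the contralateral ampulla. Of the 15 gland markers with a feature, MSX1 averaged 696 CPM in the upper and 728 CPM in the mid horn, while SPINK7 averaged 0.271 and 0.216 CPM and was close to undetected. FOXA1, a pioneer transcription factor, had 1 count over the 5 upper and 22 over the 5 mid horn libraries. Stroma markers summed to between 46418 and 77194 CPM in the upper and between 43066 and 70696 CPM in the mid horn, against at most 645 CPM in the contralateral ampulla.

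There were 3 libraries that stood apart. The mid horn of heifer 10882 carried oviduct transcripts: 7 markers of oviduct epithelium summed to 1290 CPM there, against 13 to 85.9 CPM in the other mid horn libraries, 9.96 to 41 CPM in the upper horn and 1160 to 3443 CPM in the contralateral ampulla. All 7 had counts in that library, whereas 1 or more were at 0 in each of the other 9. In the upper horn of heifer 10882, 18S rRNA and LOC112444681 took 48.8% of all counts, against 1.33% to 5.3% in the other 9 libraries. The upper horn of heifer 11033 was the smallest library, with 11619486 counts and 16049 features, and lay at -174 on the second principal component of the uterine libraries (16.4% of the variance), where the others lay between -36.5 and 41.7. On the first component (30.7%) the upper horn libraries lay at 67.3, 33.3, 132, -74.5 and -79.8. The mid horn libraries lay there at 48.6, 17.7, 82.4, -0.231 and -39.2. Total counts of the 10 libraries reached 26427580. Main results are therefore given with all libraries and without the mid horn of heifer 10882.

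**Figure D1:**
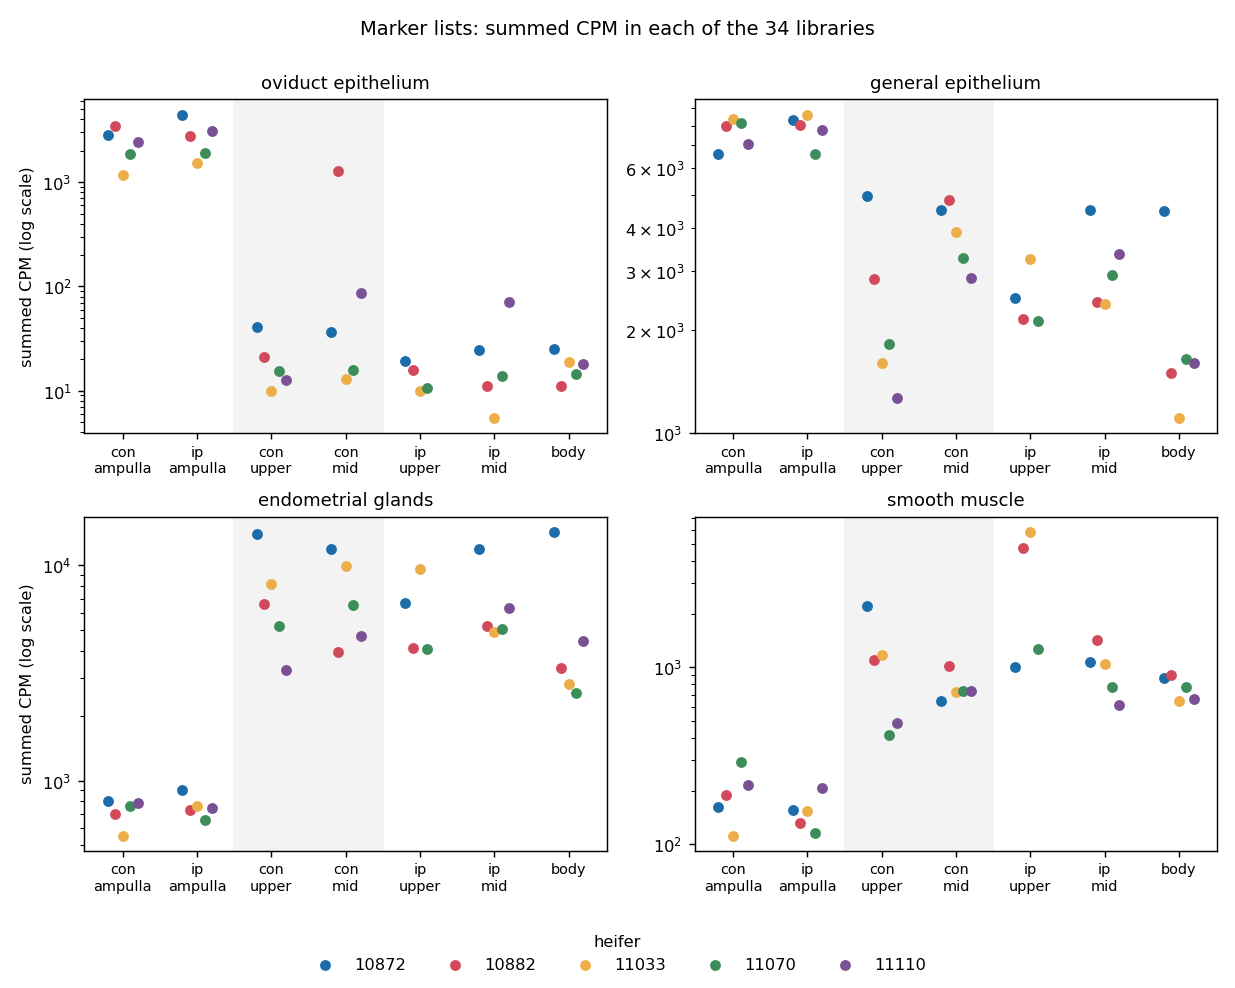
Summed CPM of 4 marker lists (log scale) in each library, by group and coloured by heifer, with the 2 compared groups shaded. In the oviduct epithelium panel the contralateral mid horn of heifer 10882 sits at 1290 CPM, among the ampulla libraries and above all other uterine ones.

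No feature passed the test. Of 17241 features, 0 (0%) had an adjusted p under 0.05 in edgeR's quasi-likelihood test, and the lowest adjusted p was 0.123, for HOXD13 and GPC3. Without the mid horn of heifer 10882 it was again 0 of 17223, with a lowest adjusted p of 0.213. DESeq2 called 24 of 15235 features (0.158%), 4 higher (0.0263%) and 20 lower (0.131%) in the upper horn, and in 16 of those 20 the mid horn of heifer 10882 held over 50% of the mid horn counts. Without that library DESeq2 called 3, which were GPC3, CASQ2 and HOXD13. The form of the edgeR test adjusted for small counts called 3 as well, GPC3, CASQ2 and LOC112444517, and 0 without that library. Without a filter on low counts edgeR called 268 of 38568 features (0.695%), and 80 without that library; the filter removes 3 of the 268. The unadjusted p was under 0.05 for 1108 features, or 6.43% of those tested, with 578 (3.35%) higher and 530 (3.07%) lower in the upper horn. Without the mid horn of heifer 10882 there were 752 (4.37%), with 474 (2.75%) higher and 278 (1.61%) lower, of which 603 were shared, that is 54.4% of the former and 80.2% of the latter. Genes are therefore named for their measured values and not as called changes, and the members of a gene list are counted at an unadjusted p under 0.05, to be read against these shares.

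The precision of the comparison was limited. The median 95% confidence interval of a log2 fold change extended 1.02 to either side of the estimate, and 0.51 for the 5183 features with a mean of at least 10 CPM. It lay wholly within 2-fold for 29.9% of all features and for 74.2% of those at 10 CPM or more. In counts simulated on these samples, the same test recovered 16% of genes changed 2-fold and 46% of genes changed 4-fold.

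**Figure D2:**
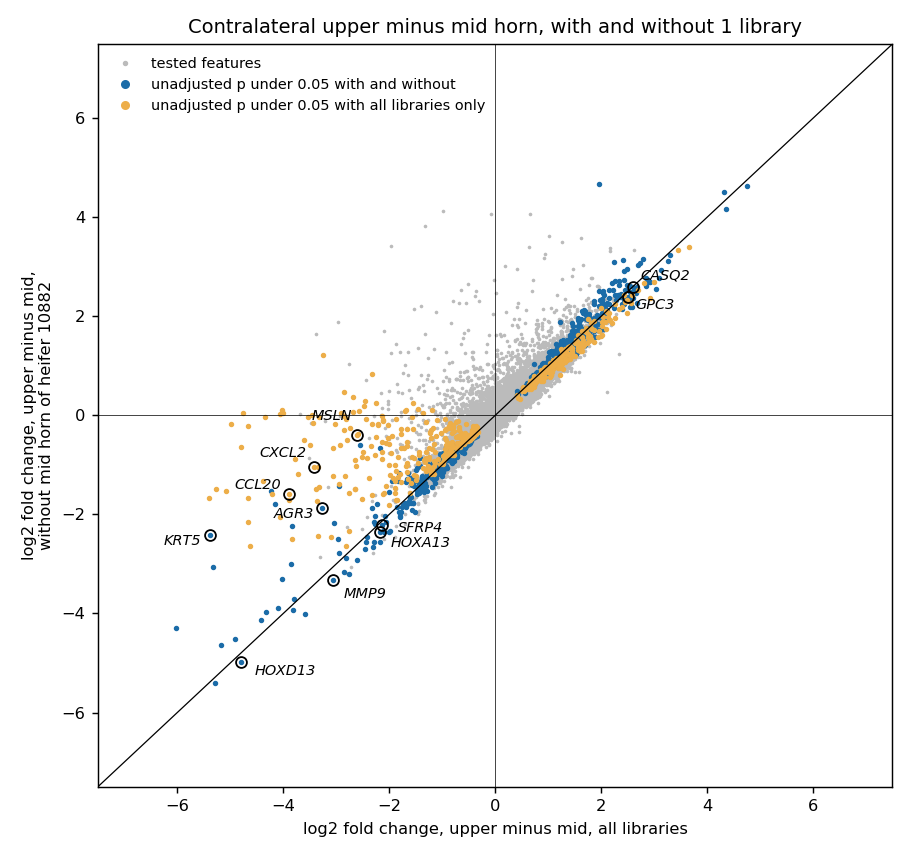
Each point is 1 feature, with its log2 fold change (upper minus mid) from all libraries on the x axis and without the mid horn of heifer 10882 on the y axis, and the diagonal marks equal values. GPC3, CASQ2, HOXD13, HOXA13, SFRP4 and MMP9 lie near the diagonal, while KRT5, MSLN, CXCL2 and CCL20 lie far above it, closer to 0 on the y axis.

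Among genes with an official symbol that were higher in the upper horn, GPC3, CASQ2 and TCF21 had the lowest p-values. LOC112444517, a feature with a placeholder name only, lay between the first and the second, with a log2 fold change of 4.75 (adjusted p = 0.289 in edgeR), and 4.64 without the mid horn of heifer 10882. GPC3 codes for glypican 3, a proteoglycan anchored to the cell surface that modulates growth factor signals. It was at 11.2, 13, 44.1, 34.9 and 18.7 CPM in the upper and at 1.16, 2.94, 2.82, 10.9 and 5.88 CPM in the mid horn. Every upper horn library lay above every mid horn library, as for 45 of all features tested (0.261%), and the means were 24.4 ± 14.4 and 4.75 ± 3.86 CPM. The log2 fold change was 2.50 ± 0.49 (adjusted p = 0.123 in edgeR, adjusted p = 0.000197 in DESeq2), and 2.39 without the mid horn of heifer 10882. GPC3 averaged 1.28 CPM in the contralateral ampulla and 7.98 CPM in the body.

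CASQ2, a calsequestrin that stores calcium in the sarcoplasmic reticulum of muscle, was at 1.97, 2.07, 5.03, 5.72 and 3.3 CPM in the upper horn. In the mid horn it was at 1.29, 0.346, 0.603, 0.756 and 0.14 CPM, again with no overlap between the groups. Its log2 fold change was 2.60 ± 0.60 (adjusted p = 0.541 in edgeR), with or without the mid horn of heifer 10882.

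TCF21, a transcription factor of mesenchymal progenitors, was at 16.6, 26.9, 62, 26.3 and 16.6 CPM in the upper and 9.43, 8.86, 13.6, 16.2 and 4.58 CPM in the mid horn. The groups did not overlap, but the lowest upper horn value, 16.6 CPM, was close to the highest mid horn value, 16.2 CPM. The log2 fold change was 1.45 ± 0.35 (adjusted p = 0.584 in edgeR).

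The 8 genes with an official symbol and the lowest p-values among those higher in the upper horn also held ACACB, GSTM3, MYOC, TNFRSF4 and CRMP1. MYOC, which codes for the secreted glycoprotein myocilin, was at 220, 170, 381, 217 and 275 CPM against 170, 66.3, 68.8, 91.8 and 76.5 CPM, a log2 fold change of 1.41 ± 0.41. GSTM3, a glutathione transferase, averaged 351 ± 156 and 156 ± 55.9 CPM, with a log2 fold change of 1.14 ± 0.33. TNFRSF4, the costimulatory receptor OX40 of T cells, averaged 63.6 ± 28.9 and 29.8 ± 12.8 CPM, with 1.15 ± 0.35. These 3 were higher in 5 of 5 heifers with groups that overlapped or touched, against 3.83% of all features higher in 5 of 5. Heifer 11033 had the highest upper horn value of all 5 genes: ACACB, an acetyl-CoA carboxylase, was at 1.93 CPM there and at 0.186 to 0.369 CPM in the other upper horn libraries. CRMP1, a cytosolic mediator of axon guidance signals, was at 4.45 CPM in that library and at 0.369 to 1.49 CPM in the others. Without the 3 libraries that stood apart the log2 fold change of TNFRSF4 was 0.73 and that of CRMP1 was 1.03.

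**Figure D3:**
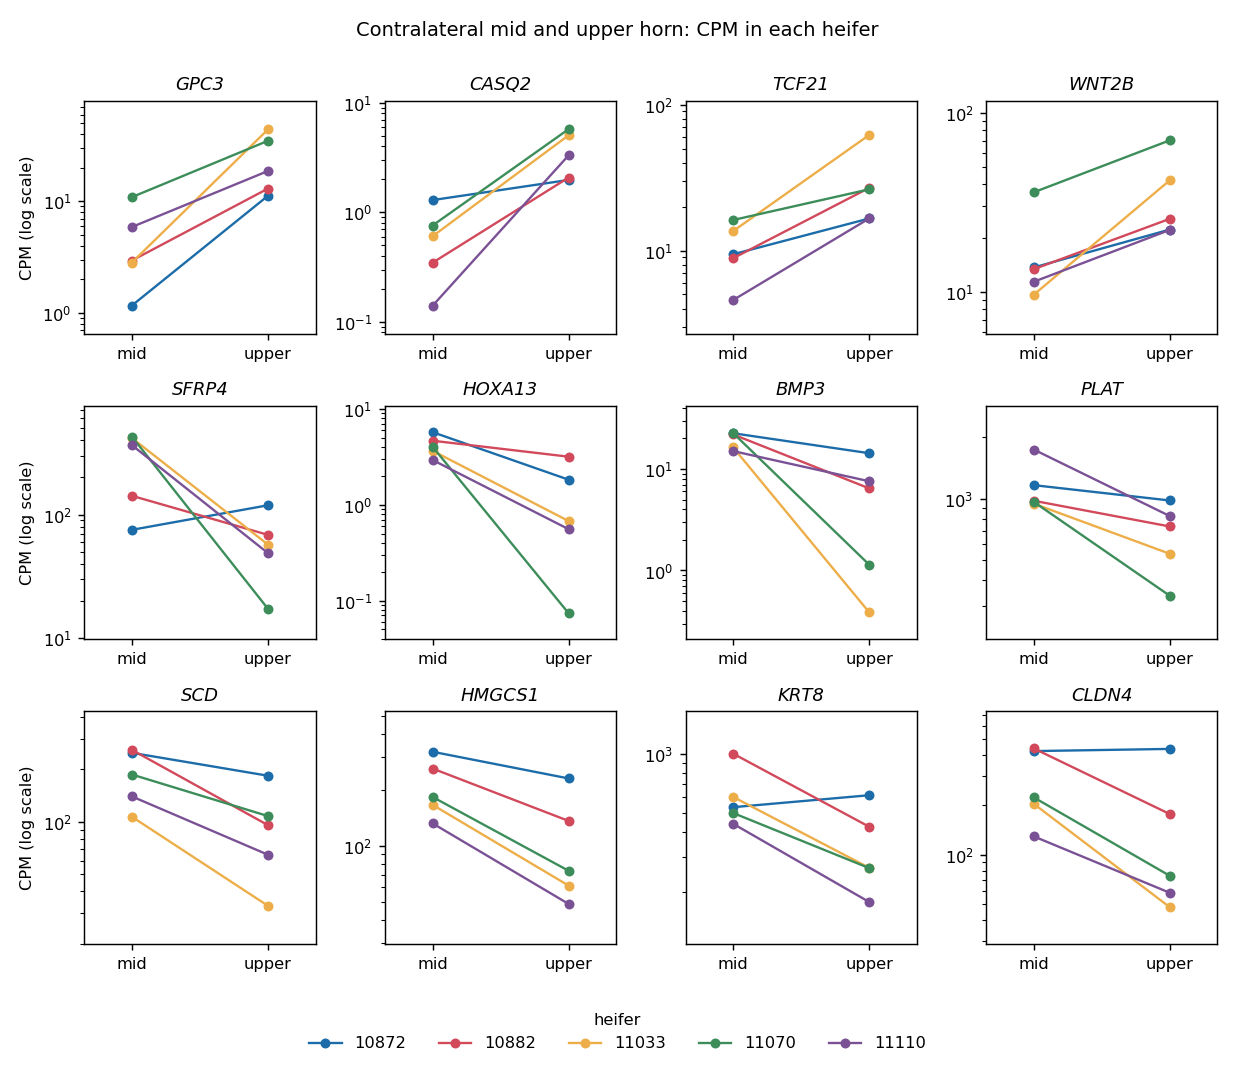
CPM (log scale) of 12 genes in the contralateral mid and upper horn, with 1 line per heifer. All lines of GPC3, CASQ2, TCF21 and WNT2B slope upward from mid to upper, all lines of HOXA13, BMP3, PLAT, SCD and HMGCS1 slope downward, and heifer 10872 runs against the other 4 in SFRP4, KRT8 and CLDN4.

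The lowest p-values among HOX genes were those of HOXD13 and HOXA13, both less abundant in the upper horn. HOXD13 had 1 count in the 5 upper horn libraries together, in heifer 10882, and 48 counts in the 5 mid horn libraries, with counts in each. In CPM it was at 0.801, 0.346, 0.251, 0.489 and 0.28 in the mid horn. The ratio of mid to upper was 40.8, with a 95% interval of 6.98 to 1644 that covers counting error only, and 43.1 (7.3 to 1744) without the mid horn of heifer 10882. Its adjusted p was 0.123 in edgeR and 0.00586 in DESeq2.

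HOXA13 was at 1.83, 3.18, 0.677, 0.0738 and 0.557 CPM in the upper and at 5.74, 4.67, 3.67, 4.05 and 2.94 CPM in the mid horn. It was lower in the upper horn in each of the 5 heifers, and only the upper horn of heifer 10882 reached into the mid horn range. The log2 fold change was -2.17 ± 0.59 (adjusted p = 0.697 in edgeR), and -2.35 without the mid horn of heifer 10882. Along the contralateral side, HOXA13 averaged 0.0787 ± 0.176 CPM in the ampulla, 1.26 ± 1.25 in the upper horn, 4.21 ± 1.06 in the mid horn and 11.9 ± 5.44 in the body. The lowest body library, at 8.52 CPM, was above the highest mid horn library, at 5.74 CPM. HOXD13 followed the same order from upper horn to mid horn and body, at 0.0159, 0.434 and 3.67 CPM. Its 0 counts in the contralateral ampulla and 1 count in the upper horn are too few to order these sites.

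The ipsilateral side has libraries of its own and gave the same order. HOXA13 averaged 1.38 ± 1.46 CPM in the ipsilateral upper horn (n = 4) and 4.66 ± 3.48 CPM in the ipsilateral mid horn, a log2 fold change of -1.97 ± 0.62, lower in 4 of 4 heifers. HOXD13 averaged 0.0374 and 0.313 CPM there, with 4 and 34 counts. The difference between sides was -0.21 ± 0.82 for HOXA13 and -1.83 ± 1.28 for HOXD13 (adjusted p = 1 for both in edgeR).

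HOXA10 and HOXA11, which are needed for a uterus that can carry an embryo, are given with HOXA9, HOXC5, HOXD9, HOXD10 and HOXD11 as genes chosen after their values were seen. HOXA10 was at 79, 150, 129, 68.4 and 145 CPM in the upper and 75.5, 120, 132, 125 and 140 CPM in the mid horn, a log2 fold change of -0.05 with a 95% interval of -0.58 to 0.48. HOXA11 averaged 182 ± 77.2 and 252 ± 47 CPM, with a log2 fold change of -0.47 ± 0.33. HOXA9 was higher in the upper horn in 5 of 5 heifers, at 67.5, 128, 376, 114 and 344 against 49.1, 96.6, 70.6, 93.9 and 273 CPM (log2 fold change 0.94 ± 0.38, adjusted p = 0.754 in edgeR). Without the 3 libraries that stood apart it was 0.38. HOXD9, HOXD10 and HOXD11 had log2 fold changes of 0.44, 0.43 and -0.27. HOXC5 averaged 0.944 ± 1.12 and 2.02 ± 1.54 CPM and was lower in the upper horn in 4 of 5 heifers (-1.46 ± 0.51, adjusted p = 0.754 in edgeR). Its log2 fold change was -0.96 without the mid horn of heifer 10882, and -1.20 on the ipsilateral side. Of 29 HOX genes tested, 1 was higher (HOXA9) and 3 were lower (HOXD13, HOXA13 and HOXC5) at an unadjusted p under 0.05, and their median log2 fold change was -0.01, against 0.05 over all features.

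**Figure D4:**
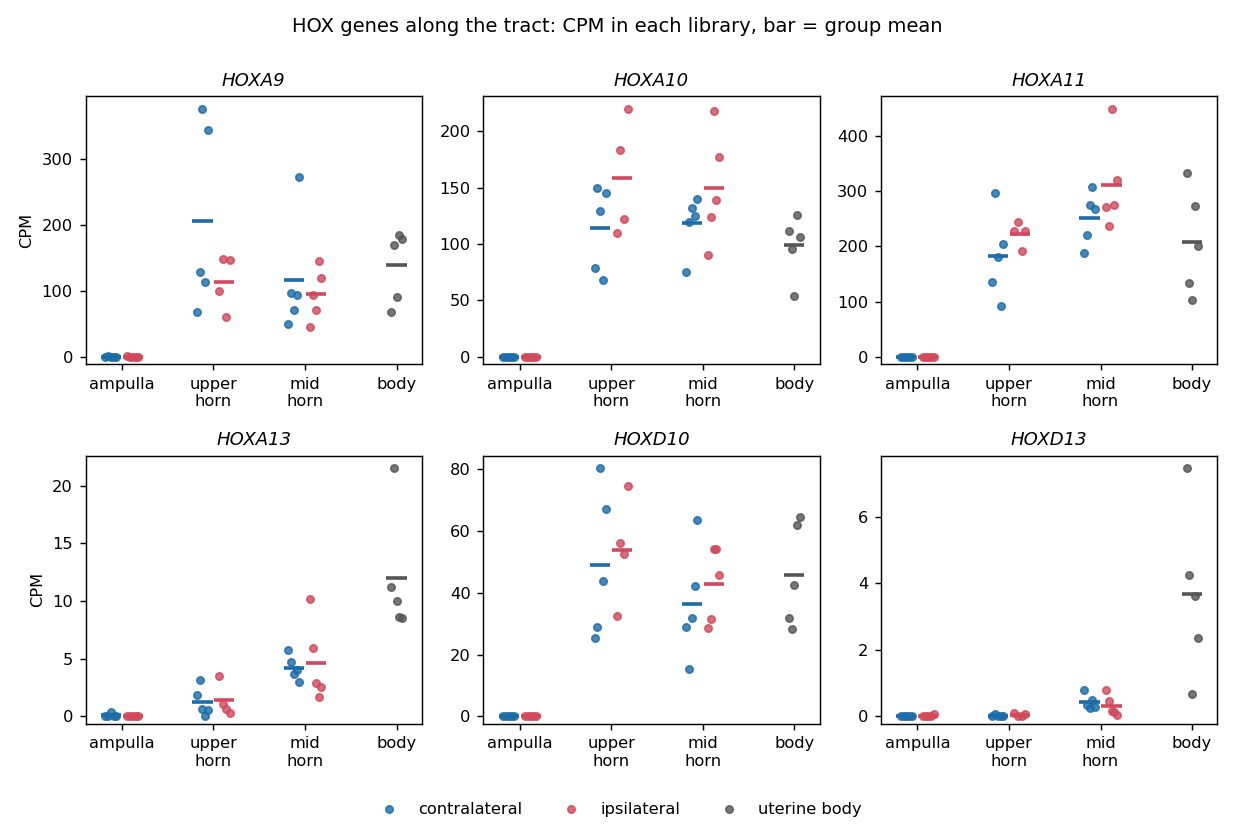
CPM of 6 HOX genes in each library along the tract, with contralateral, ipsilateral and body libraries in different colours and a bar at each group mean. HOXA13 steps up from ampulla to upper horn, mid horn and body. HOXD13 is near 0 in the ampulla and the upper horn and steps up to mid horn and body. HOXA9, HOXA10, HOXA11 and HOXD10 are near 0 in the ampulla and spread over overlapping ranges in the uterine sites.

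SFRP4, a secreted inhibitor of WNT signals, was at 119, 68.6, 57.2, 17.3 and 48.8 CPM in the upper and at 75.3, 142, 417, 428 and 365 CPM in the mid horn. It was lower in the upper horn in 4 of 5 heifers, heifer 10872 being the exception, with a log2 fold change of -2.13 ± 0.61 (adjusted p = 0.704 in edgeR). The mid horn mean of 286 CPM was also above the body mean of 111 CPM, so that SFRP4 did not follow the order of HOXA13.

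The related SFRP2, named after its values were seen, ran the other way: 281, 75.2, 85.7, 83.6 and 82.6 CPM in the upper against 54.2, 43.2, 49.6, 54.9 and 48.7 CPM in the mid horn. The groups did not overlap, and the log2 fold change was 1.12 ± 0.64 (adjusted p = 0.803 in edgeR). On the ipsilateral side SFRP2 had a log2 fold change of 2.04.

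The ligand WNT2B was at 22.3, 25.6, 42, 70.2 and 22.2 CPM in the upper and 13.7, 13.4, 9.65, 36 and 11.4 CPM in the mid horn, higher in 5 of 5 heifers (log2 fold change 1.09 ± 0.40, adjusted p = 0.754 in edgeR). Of 24 WNT ligands and inhibitors, 1 was higher, WNT2B, and 1 lower, SFRP4, at an unadjusted p under 0.05.

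SOSTDC1, a secreted antagonist of BMP and WNT signals, was at 5.29, 3.5, 4.06, 2.14 and 2.04 CPM in the upper and 5.61, 8.43, 7.34, 18.8 and 7.14 CPM in the mid horn. The groups did not overlap, but heifer 10872 had nearly the same level in both (log2 fold change -1.40 ± 0.34, adjusted p = 0.584 in edgeR). BMP3, a ligand that counteracts other BMPs, was at 14.3, 6.44, 0.387, 1.14 and 7.57 against 22.5, 21.9, 16.3, 22.6 and 15 CPM, also without overlap, as for 46 of all features with lower upper horn levels (0.267%). Its log2 fold change was -2.26 ± 0.61 (adjusted p = 0.697 in edgeR), and -2.20 without the mid horn of heifer 10882. BMP7 averaged 27.5 ± 12.1 and 54.4 ± 24.8 CPM and was lower in 3 of 5 heifers.

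Of 22 TGF-beta, BMP and activin genes, 2 were higher and 3 lower at an unadjusted p under 0.05, and the median log2 fold change was -0.24. FGFBP1, a secreted carrier that releases FGFs from the matrix and was named after its values were seen, was at 0.702, 0.715, 0, 0.59 and 0.279 CPM against 0.845, 5.75, 0.905, 4.09 and 7.19 CPM. All 5 heifers were lower in the upper horn, without overlap (log2 fold change -2.95 ± 0.80, adjusted p = 0.697 in edgeR). On the ipsilateral side FGFBP1 had 0.62 ± 0.75, higher in 3 of 4 heifers. Its difference between sides was -3.57 ± 1.08, which did not pass an adjusted p of 0.05 in edgeR. Of 22 FGF and EGF family signals tested, a list without FGFBP1, 5 were lower and 0 higher at an unadjusted p under 0.05, and 2 without the mid horn of heifer 10882. Among them SPRED1, an inhibitor of MAP kinase signalling, averaged 0.556 ± 0.33 and 1.79 ± 0.606 CPM, without overlap.

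The neurotrophic factor GDNF, named after its values were seen, was higher in the upper horn in 5 of 5 heifers at a low level. It was at 0.749, 1.59, 9.67, 4.06 and 4.46 CPM in the upper and 0.534, 0.519, 0.151, 0.756 and 3.08 CPM in the mid horn. The log2 fold change was 1.87 ± 0.71, and on the ipsilateral side 1.62.

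Of 23 candidate embryokines tested, 6 were lower and 0 higher in the upper horn at an unadjusted p under 0.05, and 20 had a log2 fold change below 0, with a median of -0.46. Without the mid horn of heifer 10882 the number was 2. HBEGF, an EGF receptor ligand, was at 25.4, 21.6, 7.54, 18.9 and 15.1 CPM in the upper and 29.7, 112, 21.1, 24.7 and 18.1 CPM in the mid horn. Its log2 fold change was -0.93 ± 0.33, and -0.60 without the mid horn of heifer 10882. IL1B, a proinflammatory cytokine named after its values were seen, was at 2.01, 3.26, 0.967, 1.44 and 1.16 against 2.94, 5.1, 1.76, 8.72 and 4.3 CPM, lower in 5 of 5 heifers (log2 fold change -1.38 ± 0.62). Among prostaglandin genes PTGS2, the inducible cyclooxygenase, was at 18.2, 9.86, 6.77, 6.16 and 5.95 against 28.9, 44.4, 10.4, 34.9 and 27.4 CPM. It was lower in 5 of 5 heifers, with a log2 fold change of -1.53 ± 0.53 (adjusted p = 0.754 in edgeR), and -1.32 without the mid horn of heifer 10882. The ipsilateral estimate for PTGS2 was 0.53 ± 0.57 and the difference between sides -2.06 ± 0.78 (adjusted p = 1 in edgeR).

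Single chemokines showed how far 1 library reached, while the median of their list did not depend on it. Of 25 chemokines and cytokines, 10 were lower and 0 higher at an unadjusted p under 0.05, and 3 were lower without the mid horn of heifer 10882. The median log2 fold change of the list was -0.54, and -0.58 without that library. Its median difference was below 0 in 5 of 5 heifers. CXCL8, a neutrophil attractant, was at 94.9 CPM in that library and at 0.801 to 4.4 CPM in the other mid horn libraries, and the upper horn ranged from 0.186 to 1.83 CPM. Its log2 fold change was -3.05 ± 0.90, and -2.17 without that library. CCL20, which attracts CCR6-bearing cells, was at 41 CPM there and at 0 to 0.845 CPM in the other mid horn libraries, and its log2 fold change was -3.89, and -1.59 without it. CXCL2, named after its values were seen, was at 76.9 CPM against 0.187 to 1.25 CPM, and its log2 fold change went from -3.42 to -1.04.

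In the lists of oviduct epithelium and of endoplasmic reticulum chaperones, fewer members passed an unadjusted p of 0.05 without the same library. KRT5, a keratin of basal epithelial cells, was at 6.14, 454, 4.47, 3.69 and 40.5 CPM in the mid and at 3.79, 1.59, 1.16, 0.996 and 0.186 CPM in the upper horn. It was lower in the upper horn in 5 of 5 heifers, with a log2 fold change of -5.39 ± 1.32, and -2.41 without the mid horn of heifer 10882. OVGP1, the oviduct glycoprotein, had 2 counts in the upper and 46 in the mid horn, a ratio of mid to upper of 19.5 (counting interval 5.11 to 166), and 8.62 (2.03 to 77.3) without that library. In the contralateral ampulla OVGP1 averaged 4.61 CPM, so its highest mid horn level of 1.3 CPM stayed below the lowest ampulla level of 2.48 CPM. Of the 7 oviduct markers 5 were lower at an unadjusted p under 0.05, and 2 without that library. MSLN, named after its values were seen and also made by mesothelium, was at 793 CPM there and at 6.34 to 40.7 CPM in the other mid horn libraries.

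AGR3, an endoplasmic reticulum protein of the disulphide isomerase family, was at 10.2 CPM in the mid horn of heifer 10882 and at 0.453 to 1.63 CPM in the others, and GPX2, a glutathione peroxidase of epithelia, at 96.7 against 2.97 to 28.7 CPM. Their log2 fold changes were -3.27 and -2.95, and -1.88 and -1.43 without it. Of 18 endoplasmic reticulum chaperones and heat shock genes 8 were lower, and 2 without that library. Their median log2 fold change was -0.57, and -0.41 without it, and the median difference was below 0 in 4 of 5 heifers. The chaperone cofactor SDF2L1 was at 312 CPM in that library, against 23.9 to 39.8 CPM in the other mid horn and 9.89 to 32.4 CPM in the upper horn libraries. PDIA3, of the same list, had a log2 fold change of -0.67 ± 0.26, and -0.56 without that library. Ciliated epithelium, which the oviduct and the endometrium both hold, had 28 markers tested with 0 at an unadjusted p under 0.05. Their median log2 fold change was -0.16, and 0.22 without that library.

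Markers of epithelium in general were lower in the upper horn in 4 of 5 heifers. They summed to 4971, 2832, 1601, 1822 and 1267 CPM in the upper and to 4523, 4835, 3894, 3262 and 2846 CPM in the mid horn. Heifer 10872 was the exception, and the upper horn of heifer 11110 the lowest. All 14 tested markers had a log2 fold change below 0, with a median of -0.67, and 6 had an unadjusted p under 0.05; without the mid horn of heifer 10882 the median was -0.50 and the number 5.

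KRT8, a keratin of simple epithelium, was at 616, 427, 265, 264 and 178 CPM in the upper and 536, 999, 604, 501 and 442 CPM in the mid horn (log2 fold change -0.88 ± 0.25, adjusted p = 0.704 in edgeR). CLDN4, a tight junction claudin, was at 436, 176, 48.1, 74.5 and 58.8 against 423, 439, 203, 222 and 129 CPM (-1.14 ± 0.34). The keratins KRT7 and KRT19, named after their values were seen, had log2 fold changes of -0.98 ± 0.37 and -1.10 ± 0.41. Without the mid horn of heifer 10882 these were -0.88 and -1.10. KRT18, the partner of KRT8 in simple epithelium and also named after its values were seen, went from -0.69 ± 0.27 to -0.29 without that library. Gland markers had a median log2 fold change of -0.05 over 15 tested, with 2 lower at an unadjusted p under 0.05, FOXA1 and SLPI, and 0 without the mid horn of heifer 10882. Both averaged under 1 CPM in the upper and in the mid horn, and 15 of the 22 mid horn counts of FOXA1 were in that library.

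Of 11 genes of lipid and sterol metabolism tested, 4 were lower and 0 higher at an unadjusted p under 0.05, and 3 without the mid horn of heifer 10882. Of the 11, 3 had a log2 fold change above 0. The part of the epithelial markers, which were lower in the same libraries, was not tested. SCD, which desaturates fatty acids, was at 184, 95.8, 33, 108 and 64.8 CPM in the upper and 249, 259, 107, 187 and 140 CPM in the mid horn. The level was lower in 5 of 5 heifers, as for 3.8% of all features, with a log2 fold change of -1.05 ± 0.27 (adjusted p = 0.657 in edgeR), and -0.86 without the mid horn of heifer 10882. HMGCS1, an enzyme of the cholesterol pathway, was at 230, 136, 61.1, 73.4 and 48.7 against 320, 260, 166, 183 and 132 CPM (-1.07 ± 0.31). MYO1D, an unconventional myosin, averaged 62.8 ± 39.1 and 120 ± 31.4 CPM and was lower in 5 of 5 heifers (-1.05 ± 0.26, adjusted p = 0.645 in edgeR). SLC1A5, a glutamine transporter, averaged 40.5 ± 11.6 and 71.9 ± 22.4 CPM (-0.83 ± 0.23), and 2 of 24 nutrient transporters were lower, or 1 without the mid horn of heifer 10882.

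Of 21 genes of matrix remodelling 6 were lower and 0 higher at an unadjusted p under 0.05, and again 6 without the mid horn of heifer 10882. PLAT, the tissue plasminogen activator, was at 982, 733, 539, 336 and 824 CPM in the upper and 1167, 979, 948, 967 and 1742 CPM in the mid horn. It was lower in 5 of 5 heifers (log2 fold change -0.82 ± 0.25, adjusted p = 0.752 in edgeR), and on the ipsilateral side in 4 of 4 (-0.54 ± 0.27).

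MMP9, the gelatinase B, was at 0.702, 0.238, 0.677, 0.295 and 0.557 CPM in the upper and 0.311, 0.778, 12.4, 1.25 and 33.2 CPM in the mid horn, so that the difference lay mainly in heifers 11033 and 11110. Its log2 fold change was -3.06 ± 0.85 (adjusted p = 0.697 in edgeR). MMP1, the interstitial collagenase, named after its values were seen, was at 27.7 CPM in the mid horn of heifer 11110 and at 0.151 to 1.02 CPM in the other mid horn libraries. LOXL2, a collagen crosslinking enzyme, and PLAUR, the urokinase receptor, also named after their values were seen, had log2 fold changes of -0.83 ± 0.36 and -0.99 ± 0.32. PLAUR was at 82.6 CPM in the mid horn of heifer 10882 and at 18 to 32 CPM in the others.

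Complement and antimicrobial genes had 6 of 15 lower, 5 without the mid horn of heifer 10882, and a median of -0.78. CFB, complement factor B, was at 45.6, 17.6, 8.7, 8.59 and 15 against 49.8, 39.5, 28.9, 49.4 and 64.5 CPM, lower in 5 of 5 heifers (-1.46 ± 0.58). LAP, a beta-defensin of a family whose members may share reads, had 0 counts in the upper horn and 17 in the mid horn, 14 of them in heifer 11033. C3, named after its values were seen, was at 925 and 1006 CPM in the mid horns of heifers 10882 and 11110 and at 104 to 168 CPM in the other mid horns. Leukocyte markers summed to between 121 and 330 CPM in the upper and between 161 and 375 CPM in the mid horn, with 0 of 14 at an unadjusted p under 0.05.

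Immediate early genes, transcription factors and feedback genes that cells switch on within minutes of a stimulus, had 22 of 23 log2 fold changes below 0, with a median of -0.61. The median difference was below 0 in each heifer, from -1.35 in heifer 10882 to -0.28 in heifer 10872. 1 gene, DUSP2, had an unadjusted p under 0.05, and 0 without the mid horn of heifer 10882, where the list summed to 12410 CPM against 3390 to 7338 CPM in the other mid horn libraries. FOS and EGR1, named after their values were seen, were lower in 5 of 5 heifers, at 69.5, 76.2, 23, 129 and 37.3 against 84.7, 248, 42.6, 159 and 67.4 CPM for FOS. On the ipsilateral side the list's median was 0.82. FOSB differed between sides by -3.56 ± 1.26 (adjusted p = 1 in edgeR).

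Smooth muscle genes, which mark the muscle wall under the lining, had 12 of 13 log2 fold changes above 0, with a median of 0.41. At an unadjusted p under 0.05, 2 were higher, MYLK and SMTN, and 1 without the mid horn of heifer 10882. The summed CPM of the list were 2221, 1094, 1179, 412 and 483 in the upper and 643, 1021, 726, 730 and 736 in the mid horn. They were higher in heifers 10872, 10882 and 11033 and lower in the other 2. MYLK, the myosin light chain kinase, averaged 0.851 ± 0.449 and 0.418 ± 0.221 CPM and was higher in 5 of 5 heifers. SMTN averaged 0.294 and 0.0553 CPM and was higher in 2 heifers, lower in 2 and equal in 1. In heifers 11070 and 11110, whose smooth muscle sum was lower in the upper horn, CASQ2, GPC3 and MYLK were higher there. The part of muscle in CASQ2 and GPC3 was not tested. The ipsilateral upper horn had a median of 1.60 for this list, with 9 of 13 past an unadjusted p of 0.05.

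**Figure D5:**
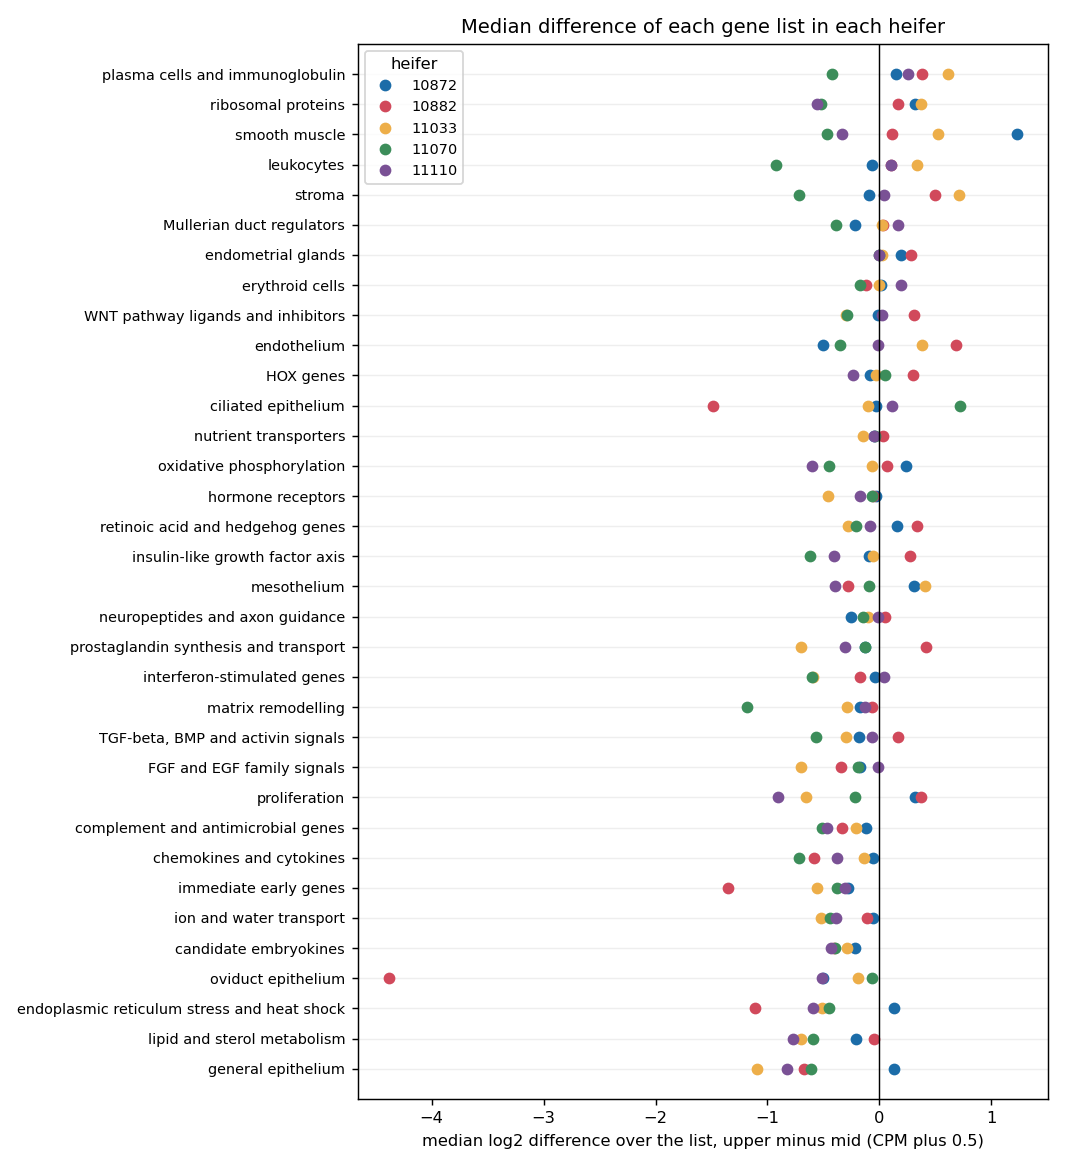
Median log2 difference (upper minus mid, on CPM plus 0.5) over the tested genes of each of 34 lists, with 1 point per heifer. Lists that lie below 0 in all 5 heifers are oviduct epithelium, hormone receptors, immediate early genes, matrix remodelling, complement, and ion and water transport. Lipid and sterol metabolism, candidate embryokines, FGF and EGF family signals, and chemokines do too, and no list lies above 0 in all 5. Oviduct and ciliated epithelium reach -4.38 and -1.49 in heifer 10882.

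Ribosomal proteins had 0 of 31 at an unadjusted p under 0.05 and a median of -0.00, endothelium 0 of 12, erythroid cells 0 of 3 and proliferation 0 of 17. Heifers differed in sign, with ribosomal median differences of 0.32, 0.17, 0.37, -0.52 and -0.56. Those of endothelium ran from -0.50 to 0.68 and those of proliferation from -0.91 to 0.37. Of 16 stroma markers 1 was higher, COL6A2 (1.63 ± 0.61). Without the 3 libraries that stood apart COL6A2 had 0.32. The stroma median then went from 0.17 to -0.28, with 0 higher and 2 lower. Of 22 genes of oxidative phosphorylation 1 was lower, ATP5F1B. Of 14 hormone receptors 1 was higher, ESR2, at 25.1 ± 11.2 against 16 ± 4.84 CPM, and 0 without the mid horn of heifer 10882. ESR2 was higher in 3 of 5 heifers. Of 17 genes of the insulin-like growth factor axis 1 was lower, IGFBP3, at 395, 234, 242, 123 and 242 CPM in the upper and 421, 291, 410, 330 and 622 CPM in the mid horn. Ion and water transport had 4 of 18 lower, and 2 without the mid horn of heifer 10882. Among them AQP9 and AQP5, water channels, had 0 counts in the upper horn, and 39 and 16 counts in the mid horn of heifer 10882. Interferon-stimulated genes had 1 higher and 2 lower of 21, with or without that library. ISG20 averaged 3.18 ± 2.79 and 8.39 ± 4.62 CPM, and IFIH1, a sensor of double-stranded RNA, was at 52.4, 48.5, 51.7, 29.6 and 48.7 against 64.6, 55.3, 64.3, 57.3 and 52.4 CPM, groups that met at 52.4 CPM. Of 19 retinoic acid and hedgehog genes 1 was higher and 2 were lower, the latter 0 without that library. ALDH1A2, an enzyme of retinoic acid synthesis that mesothelium also makes, averaged 48.1 ± 24.4 and 154 ± 96 CPM (-1.66 ± 0.59). Of 20 genes of neuropeptides and axon guidance 2 were higher and 2 lower, with or without that library. NTS, neurotensin, was at 3.79, 2.54, 5.7, 0.443 and 0.65 against 7.43, 26.9, 7.89, 2.05 and 5.28 CPM (-1.94 ± 0.56, and -1.32 without the mid horn of heifer 10882). PENK, proenkephalin, averaged 80 ± 98 and 36.2 ± 37.5 CPM (0.99 ± 0.37).

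The ipsilateral horns share no library with this comparison. Of 17241 features 0 passed an adjusted p of 0.05 for ipsilateral upper minus mid, with 253 (1.47%) at an unadjusted p under 0.05, and 0 for the difference between sides, with 252 (1.46%), both in edgeR. DESeq2 called 3 and 2. GPC3 had an ipsilateral log2 fold change of 1.25 ± 0.49, higher in 4 of 4 heifers, and CASQ2 had 0.98 ± 0.60, also in 4 of 4. Their differences between sides were 1.25 ± 0.67 and 1.62 ± 0.84 (adjusted p = 1 in edgeR). SFRP4 had -1.02 ± 0.63 and SOSTDC1 -0.72 ± 0.36 on the ipsilateral side, each lower in 3 of 4 heifers. Among other genes named for the lowest p-values, CRMP1 had 1.15 there, higher in 4 of 4, and MYOC 0.58, in 3 of 4. TCF21, ACACB, GSTM3 and TNFRSF4 had 0.31, 0.12, 0.46 and 0.30, each higher in 2 of 4. MYO1D, SCD and GPX2 had -0.48, -0.14 and -0.83, each lower in 3 of 4. AGR3 had -0.62, lower in 2 of 4, KRT5 -0.67, in 1 of 4, and OVGP1 0.23. With 0 features past the test of the difference, nothing was shown to be particular to the contralateral horn.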

How the data were processed

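Libraries were strand-specific and made from RNA of the lining, per the labels' protocols, 34 in all. Raw, unnormalised counts of 38568 features, most of them single transcripts, came as 1 deposited table. Per the submitters' processing notes, the tools included STAR 2.7.9a, HTSeq, SAMtools and cutadapt. For build, annotation and strand or overlap handling in counting, nothing is stated in the sources used here. A read shared by transcripts of a gene may be lost, and overlapping genes or close gene copies cannot be told apart. Gene names came from a RefSeq table (assembly ARS-UCD2.0, names only), which matched 26092 features with 95.3% of all counts. A gene with several features is given by the feature of highest mean count.

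The test was edgeR's quasi-likelihood F test (version 4.0.16, R 4.3.3) over all 34 libraries, so that all groups share 1 estimate of spread. Its terms were heifer and group. Scaling was by TMM, dispersions were robust and filterByExpr kept 17241 features. P-values were adjusted by Benjamini-Hochberg within each of 3 contrasts and called under 0.05. CPM use the TMM factors. Per-heifer list medians use log2 of CPM plus 0.5. Totals ran from 11619486 to 30412782 counts, and ratios with 1 to 3 counts in a group carry exact 95% intervals. The test was tried on simulated data. The pairing comes from the labels, which put both sites in the same animal: deviations of the 2 libraries of a heifer correlated at 0.207 or more (median 0.37), against a median of -0.0509 between heifers. No pair of libraries of a group agreed within sampling noise (chi-square per feature at least 74.8).

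The rule for named genes took, among features with an official gene symbol (no placeholder such as LOC names), the 8 lowest p-values in each direction and the 2 lowest in each of 34 lists. Some genes that it took are not reported here. Others are marked as chosen after their values were seen. The members and lists were chosen with earlier results of these data known. Alternatives were DESeq2 1.42.0, RLE scaling, no filter, no heifer block, only the 10 libraries, summed features, and libraries, heifers or rRNA features left out.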

Additional observations from a re-analysis of the deposited data

Results flagged for a closer look

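A gap test within each group of 5 libraries picked out 44 single values over 187 groups of named genes, or 23.5%, where chance flags about 1 in 20. The genes were chosen for their differences. In each case 1 library lay far from the other 4 (gap over range above 0.71). All values are CPM.

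The mid horn of heifer 10882, which carries oviduct transcripts, held 20 of the 44, each time as the highest mid horn value. There KRT5 was at 454, MSLN at 793, OVGP1 at 1.3, AGR3 at 10.2, GPX2 at 96.7, KRT8 at 999, TEKT1 at 160 and ROPN1L at 223. Cytokine, stress and signal genes flagged there were CXCL8 at 94.9, CXCL2 at 76.9, CXCL5 at 158 (both named after their values were seen), CCL20 at 41, SDF2L1 at 312, FOSB at 34.1, HBEGF at 112, PLAUR at 82.6 and NTS at 26.9. SLC5A1 was at 22.3, AQP9 at 1.69 and AQP5 at 0.692.

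The upper horn of heifer 11033, the smallest library, held 5: TCF21 at 62, ACACB at 1.93, CRMP1 at 4.45 and RPL35 at 2618 as the highest, and KDR at 0.0967 as the lowest upper horn value. In the mid horn of heifer 11033, RPL35 at 1547 and LAP at 0.704 were highest.

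In the mid horn of heifer 11110, MMP1 at 27.7, PLAT at 1742, GDNF at 3.08, HOXA9 at 273 and SMTN at 0.233 were highest. In the mid horn of heifer 10872 MYOC at 170 and HBB at 2.09 were highest, and in that of heifer 11070 SOSTDC1 at 18.8 and WNT2B at 36.

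Among upper horn libraries, heifer 11070 had the highest TEKT1 at 85.1 and PENK at 249 and the lowest IFIH1 at 29.6. Heifer 10872 had the highest CFB at 45.6, MMP1 at 0.749 and SFRP2 at 281, and heifer 10882 the highest SDC1 at 386 and CCL20 at 0.636.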

How the results depend on the processing

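The count of 0 in edgeR for contralateral upper minus mid remained 0 without the heifer block (no replicate block), with only the 10 libraries, RLE scaling, summed features, the rRNA features left out, and without the 3 libraries that stood apart. Leaving out 1 library or 1 heifer gave 0 to 1, with 1 call without the upper horn of heifer 10882 and 1, CLDN4, without heifer 10872. DESeq2 gave 24, and 3 without the mid horn of heifer 10882. No filter on low counts gave 268, of which 3 are features that the filter removes, and 80 without that library. The small-count form of the test gave 3. Of the named genes, 46 passed without the filter and 24 without the filter and that library. These additions were chosen after seeing the data, and the cause of the differences was not tested.

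For the ipsilateral comparison DESeq2 gave 3 and no filter 42. The small-count form gave 1, and leaving out a heifer 0 to 1. With the mid horn of heifer 10882 left out as well, these gave 1, 40 and 1. For the difference between sides DESeq2 gave 2 and no filter 69, or 19 with that library left out.

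The named genes were taken by low p-values in these data or after their values were seen. The refits also share most libraries, so that kept directions were likely beforehand and do not test these genes. Over 97 named genes, 2684 of 2699 recomputed log2 fold changes kept their direction. The other 15 are in 5 genes. ROPN1L became 0.15 without the mid horn of heifer 10882, 0.17 without heifer 10882, 0.21 without the 3 libraries, and 0.15, 0.08 and 0.18 without that mid horn in the small-count, unfiltered and DESeq2 fits. TEKT1 became 0.10 without the 3 libraries. Leaving out 1 library or heifer at a time gave -1.11 to 0.17 for ROPN1L, -0.05 to 0.58 for CLDN5, -0.12 to 0.33 for RPL35 and -0.18 to 0.10 for HOXA10. CLDN5 became -0.04, -0.05 and -0.29, and RPL35 -0.12, -0.03 and -0.31, without the upper horn of heifer 11033, without heifer 11033 and without the 3 libraries. HOXA10 became 0.10 and 0.06 without the upper horn or all libraries of heifer 11070. In all 10 fits without 1 compared library, 162 of 17241 features kept an unadjusted p under 0.05, 48 higher and 114 lower in the upper horn. They were taken from the 1108 features under 0.05 with all libraries in edgeR, of which 578 were higher and 530 lower. RLE scaling moved the median of all features from 0.05 to 0.10. Depth limits HOXD13, OVGP1, FOXA1, LAP, AQP5 and AQP9, which have 0 to 2 counts in the upper horn.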
